A study of Mus musculus with 7 samples.

Results

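Kinesins are the motor proteins of the Kif and Kifc genes, taken here as every gene row whose symbol is Kif or Kifc followed by a number and at most 1 letter from a to c. Of 53656 gene rows 41 carried such a name, and the 33 with at least 10 counts in at least 3 of the 7 libraries were kept. They comprised 13 of 14 mitotic kinesins, 14 of 15 transport kinesins and 6 of 12 others, which act at cilia or microtubule ends or are less studied. Members were chosen by their raw counts over all libraries without regard to group, and none of the 33 met the rule through libraries of 1 group alone. Just inside the threshold lay Kif17, with 0, 0, 29 and 14 counts without and 43, 18 and 7 with SMARTA cells, and Kifc3, with at least 10 counts in 5 libraries. Just outside lay Kif1a and Kif21a, with 18 and 14 counts in replicate 1 without SMARTA and at most 2 elsewhere. Kif26b, Kif27 and Kif6 had 4, 1 and 1 counts in all, and Kif12, Kif2b and Kif26a had none.

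A kinesin turns ATP into steps along a microtubule, or uses it to take microtubule ends apart. Mitotic kinesins build the spindle, move chromosomes and complete cytokinesis, and their genes are mostly transcribed late in the cell cycle. Transport kinesins carry vesicles, organelles and RNA in cells of all cycle stages, and in T cells microtubule motors also serve the movement of organelles toward and away from the contact with a target cell.

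The cells were OT1 CD8 T cells, whose transgenic receptor recognises an ovalbumin peptide, purified by flow sorting for CD8 and CD45.1, a congenic variant of CD45 used to track cells of one origin. They came from tumours of B16-OVA-GP61, a melanoma of the mouse engineered to carry ovalbumin and GP61, a viral peptide. By the titles, 4 libraries are of OT1 cells from tumours without SMARTA cells and 3 of OT1 cells from tumours with them. SMARTA cells are CD4 T cells whose transgenic receptor sees GP61. All 7 libraries share the tumour line, the OT1 receptor and the sort. The strain and age of the mice, how and when the T cells were given, what lymphocytes the hosts held and the number of animals in each library were not given in the sources used here.

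Libraries held 38092722 to 49438357 counts, so that 3 counts, taken as the floor of detection for counting error only, corresponded to 0.0607 to 0.0788 CPM, the unit of counts relative to library size. The T cell label was checked on its defining transcripts, with Cd3e at 1143 to 1736 CPM, Cd8a at 980.5 to 2030 CPM and Cd4 at 0.659 to 8.09 CPM. Replicate 1 with SMARTA stood apart: it had the lowest median rank correlation with the other libraries (0.92, against 0.94 to 0.95) and 4829 CPM of summed erythroid transcripts, against 9.72 to 223 CPM elsewhere. Counts of calls are therefore given with and without that library. Macrophage and monocyte genes had 66.9 to 186 CPM without and 38.2 to 215 CPM with SMARTA, melanoma genes 6.91 to 68.4 and 6.70 to 9.24, and neutrophil genes 3.17 to 41.2 and 0.75 to 2.23. Genes of CD4 and regulatory T cells summed to 39.7 to 96.2 CPM without and 120.5 to 140.3 CPM with SMARTA, most of it Cd40lg, and endothelial genes to 85.6 to 118 and 137 to 187 CPM, nearly all Pecam1. B cell, dendritic cell and fibroblast genes were at 4.98 to 33.1, 13.3 to 31.1 and 0.802 to 49.1 CPM without and at 11.3 to 59.2, 15.9 to 31.04 and 8.77 to 42.9 CPM with SMARTA. Most of the dendritic cell sum was Xcr1, at 12.7 to 26.5 CPM without and 15.1 to 30.5 CPM with SMARTA. No marker gene was at 0 in all libraries, and the part of these cells in the kinesin values was not tested.

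The mitotic kinesins shared a sequence feature that the choice of members had not used. Genes that peak in G2 and mitosis often carry near their start a cell cycle homology region, bound by the MuvB complex, with the core TTTGAA, and upstream CCAAT boxes bound by NF-Y. Both motifs were searched on both strands (the core as TTTGAA and in reverse as TTCAAA; the box as CCAAT and in reverse as ATTGG; in the sequences printed here no match of one overlaps a match of the other) from 250 bases before to 50 after each RefSeq start. RefSeq promoters on GRCm38.p6 were found for 25 of the 33 members, and not for Kif20a, Kif19a, Kif5a, Kif13b, Kif5b, Kif21b, Kifc2 and Kifc3. TTTGAA was present in 11 of 12 mitotic promoters (91.7%), all except that of Kif18a, in 0 of 9 transport promoters and in 0 of 4 others, and in 20.2% of the 27025 genes with a promoter. CCAAT was present in 8 of 12 mitotic, 3 of 9 transport and 1 of 4 other promoters, and in 41.1% of all. Neither share was tested, and a match of letters is not a binding site.

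The match nearest to the start in each mitotic promoter is shown with 10 bases on either side, 5′ to 3′ on the gene's strand, with the core in capitals, to let the surroundings be compared:
Kif11, chr19:37376353-37376378, plus strand: gtctccatttTTCAAAattgaggcgc
Kif14, chr1:136467610-136467635, plus strand: aggtcctgtcTTTGAAgtctgcagtg
Kif15, chr9:122951052-122951077, plus strand: gggcgccaaaTTCAAAtctgcggcca
Kif18b, chr11:102925106-102925131, minus strand: gaccggctagTTTGAAcgcgccgcgc
Kif20b, chr19:34922355-34922380, plus strand: gccgccattgTTTGAAtttgaaaacc
Kif22, chr7:127042422-127042447, minus strand: gccccggtaaTTCAAAagagagaagc
Kif23, chr9:61946782-61946807, minus strand: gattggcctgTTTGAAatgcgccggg
Kif2c, chr4:117178860-117178885, minus strand: aggctgctctTTCAAAcctgagtaat
Kif4, chrX:100626074-100626099, plus strand: ctgggatcaaTTTGAAacttggcggt
Kifc1, chr17:33890617-33890642, minus strand: gaggttgaaaTTCAAAagtggcgggt
Kifc5b, chr17:26917110-26917135, plus strand: gaggttgaaaTTCAAAagtgactggt
The core lay within 30 bases of the start in 9 of the 11, and in 6 it lay after the start. The exceptions were Kif2c and Kif14, at −103 and −228. The tabled starts of both lie inside their genes as annotated in GENCODE. That of Kif4 also lies inside its gene, and that of Kif23 lies outside it. The positions, and the counts made from them, therefore depend on the start used. The cores of Kifc1 and Kifc5b sit in nearly the same surroundings.

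The 250 bases before the start are shown for Kif22 and Kif11, which hold both motifs, and for the transport kinesin Kif3b, with both motifs in capitals:
Kif22, chr7:127042421-127042670, minus strand: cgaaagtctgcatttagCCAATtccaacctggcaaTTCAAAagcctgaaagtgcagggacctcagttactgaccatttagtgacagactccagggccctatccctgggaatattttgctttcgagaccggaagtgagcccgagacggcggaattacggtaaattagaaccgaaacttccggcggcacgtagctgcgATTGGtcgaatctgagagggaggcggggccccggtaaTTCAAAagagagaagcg
Kif11, chr19:37376132-37376381, plus strand: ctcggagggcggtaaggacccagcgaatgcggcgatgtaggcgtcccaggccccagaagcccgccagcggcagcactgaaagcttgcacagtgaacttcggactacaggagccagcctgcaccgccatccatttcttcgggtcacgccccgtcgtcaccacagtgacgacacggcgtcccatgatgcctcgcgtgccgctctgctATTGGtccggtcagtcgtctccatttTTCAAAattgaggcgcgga
Kif3b, chr2:153291166-153291415, plus strand: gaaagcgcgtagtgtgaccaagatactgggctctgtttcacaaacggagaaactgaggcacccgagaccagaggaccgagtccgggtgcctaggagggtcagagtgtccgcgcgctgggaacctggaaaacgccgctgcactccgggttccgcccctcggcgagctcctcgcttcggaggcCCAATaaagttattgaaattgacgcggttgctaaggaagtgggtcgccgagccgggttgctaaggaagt
In Kif22 and Kif11 a CCAAT box in reverse orientation precedes the core next to the start. Kif3b holds 1 CCAAT box and no TTTGAA core.

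With SMARTA cells present the chromokinesin Kif22 fell, and no other kinesin passed the test in either direction. All 13 mitotic members had a negative log2 fold change (with minus without SMARTA), with a median of −1.76, a minimum of −2.84 and a maximum of −0.89. Kif2a, which acts at spindle poles as well as in interphase, was placed among the others and had a positive value, 0.40. With Kif2a counted as mitotic the class median was −1.71. Of the 14 transport members 10 had a positive value, with a median of 0.53, against a median of −0.0034 over the 15896 genes tested, of which 50.2% were below 0. By edgeR's quasi-likelihood test with Benjamini-Hochberg adjustment over all genes (adjusted p under 0.05), 1 of 13 mitotic kinesins was called lower, against 1.63% of all genes called lower, 1.52% called higher and 3.15% called in either direction. The libraries of the groups did not overlap, lower with SMARTA, for 9 of the 13, against 10.5% of all genes. At an unadjusted p under 0.05, 7 of the 13 were lower, against 9.37% of all genes. Scaled by library totals alone, 3 of the 13 passed (Kif18b, Kif20a and Kif22), among 561 calls over the 15896 genes. The median of all genes was then −0.16. Of all calls 29.1% were then higher with SMARTA, against 48.2% under the scaling used here (trimmed mean of M values, TMM). In these bulk libraries fewer dividing cells and less transcript in each cell cannot be told apart, and p-values measure only the spread between libraries, which may in part be technical since the labels do not state separate animals.

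**Figure D1:**
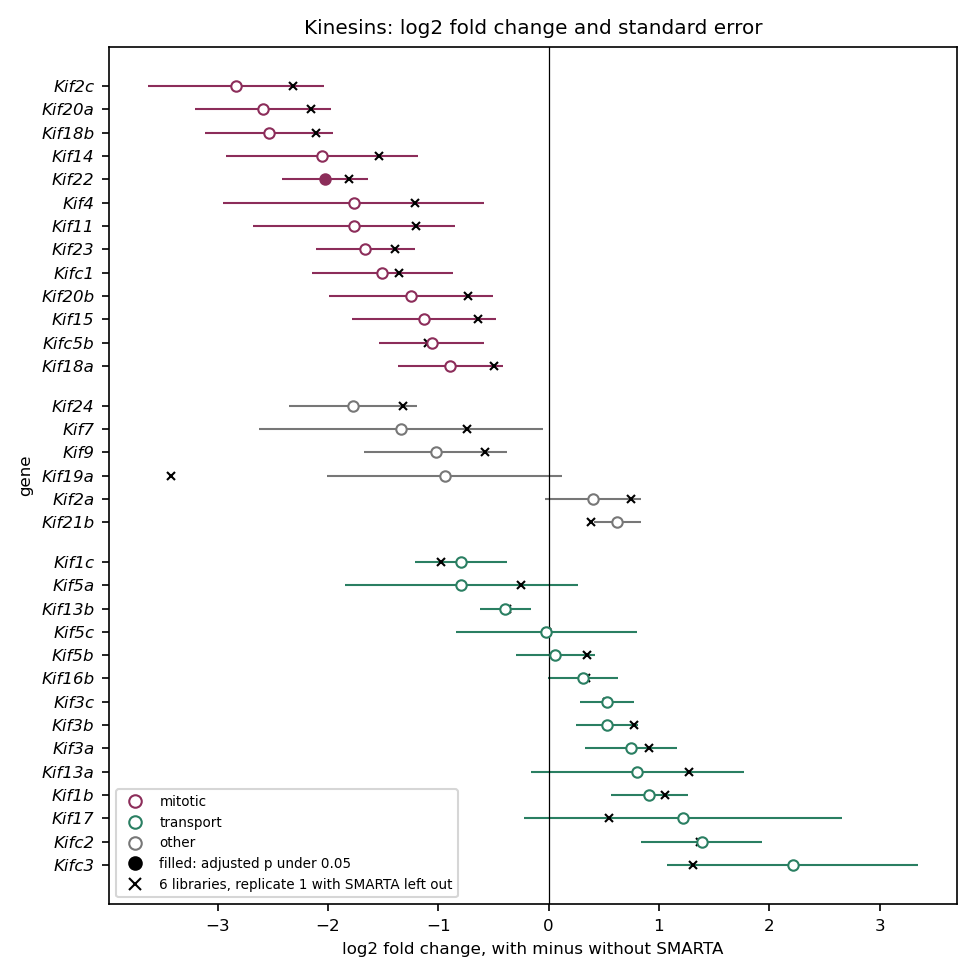
Log2 fold change (with minus without SMARTA, horizontal axis) of the 33 kinesins by class, as points with standard errors; the filled point (Kif22) had an adjusted p under 0.05, and crosses give the value when replicate 1 with SMARTA is left out. All 13 mitotic kinesins lie left of 0, and 10 of 14 transport kinesins lie right of it.

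The 2 chromokinesins, which bind chromosome arms, had the smallest and the largest standard error of the mitotic class. Kif22 (Kid), on chromosome 7 from 127027729 to 127042471 (GRCm38.p6, minus strand), was at 282, 119, 229 and 171 CPM in replicates 1 to 4 of the group without SMARTA, and replicates 1 to 3 of the other group held 31.5, 42.6 and 73.5 CPM. The groups did not overlap, and Kif22 fell by 2.03 ± 0.39 on the log2 scale (SE; 200.2 ± 70.5 to 49.2 ± 21.8 CPM, mean ± SD, n = 4 and 3; edgeR adjusted p = 0.0374). Kif4, on chromosome X from 100625737 to 100727214, was at 43.8, 30.9, 58.1 and 64.1 CPM without and at 0.0424, 13.1 and 30.3 CPM with SMARTA. The first of these 3 values is 2 counts, against 545 and 1030 in the other libraries with SMARTA and 1419 to 3039 in those without. Its groups were separated by a small margin, 30.3 against 30.9 CPM, and its log2 fold change of −1.77 ± 1.18 did not pass (edgeR adjusted p = 0.489). Exons of Pdzd11 cover 15.1% of the exon bases of Kif4, and read pairs that fall in both genes are left out by the counter's default.

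Of the kinesins that slide spindle microtubules apart neither passed the test. Kif11, the motor that separates the spindle poles, lies on chromosome 19 from 37376403 to 37421859. It was at 101, 89.7, 148 and 158 CPM without and at 1.31, 55.4 and 53.0 CPM with SMARTA (a log2 difference of −1.76 ± 0.92; edgeR adjusted p = 0.356). The groups did not overlap, and replicate 1 with SMARTA was far below the other 2. Kif15, which can take over from Kif11, was at 83.6, 62.3, 99.4 and 126 CPM without and at 6.40, 50.7 and 70.2 CPM with SMARTA (−1.13 ± 0.65; edgeR adjusted p = 0.414). Its groups overlapped, since replicate 3 with SMARTA lay above replicate 2 without.

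The kinesins that shorten microtubules at kinetochores and spindle poles held both the largest and the smallest difference of the mitotic class. Kif2c (MCAK), a depolymerase that corrects wrong attachments, lies on chromosome 4 from 117159639 to 117182639. It was at 125, 58.7, 91.3 and 88.6 CPM without and at 1.23, 14.2 and 22.8 CPM with SMARTA (−2.84 ± 0.80; edgeR adjusted p = 0.0954). Kif18b, which binds microtubule plus ends, was at 112, 42.1, 99.4 and 80.3 CPM without and at 4.07, 17.4 and 21.8 CPM with SMARTA (−2.53 ± 0.58; edgeR adjusted p = 0.0553). In both genes the highest library with SMARTA was below the lowest without, and neither passed. Kif18a, which damps chromosome movements, was at 22.6, 15.1, 14.1 and 21.6 CPM without and at 3.35, 12.7 and 13.7 CPM with SMARTA (−0.89 ± 0.47; edgeR adjusted p = 0.366). Its groups were apart by only 13.7 against 14.1 CPM.

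The 4 kinesins grouped here under cytokinesis, which act at the central spindle and midbody, had lower means with SMARTA, and none of them passed. Kif20a, which brings Aurora B to the central spindle, was at 172, 60.6, 142 and 141 CPM without and at 5.53, 23.7 and 35.1 CPM with SMARTA (−2.59 ± 0.62; edgeR adjusted p = 0.0611). Exons of Cdc23 cover 33.2% of its exon bases, and read pairs that fall in both genes are likewise left out. Kif23, the motor of centralspindlin, was at 77.8, 33.6, 68.3 and 81.7 CPM without and at 11.4, 16.4 and 34.2 CPM with SMARTA (−1.66 ± 0.45; edgeR adjusted p = 0.086). Replicate 2 without and replicate 3 with SMARTA had nearly the same level, so that the groups overlapped. Kif14, which recruits citron kinase to the midbody, was at 17.2, 11.7, 10.6 and 8.88 CPM without and at 0.233, 1.88 and 6.67 CPM with SMARTA (−2.05 ± 0.87; edgeR adjusted p = 0.252). Kif20b was at 32.6, 24.5, 21.5 and 23.0 CPM without and at 0.975, 13.1 and 18.02 CPM with SMARTA (−1.25 ± 0.74; edgeR adjusted p = 0.43). In Kif14 and Kif20b the groups did not overlap, and replicate 1 with SMARTA held 11 and 46 counts.

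Kifc1 (HSET), a minus-end motor that focuses spindle poles, and Kifc5b, its near copy on the same chromosome, had lower means with SMARTA and did not pass. Kifc1 was at 13.2, 1.94, 14.4 and 11.9 CPM without and at 2.76, 3.01 and 5.17 CPM with SMARTA (−1.51 ± 0.64; edgeR adjusted p = 0.249). The groups overlapped only through replicate 2 without SMARTA, the lowest of all 7. Kifc5b was at 5.88, 2.52, 4.63 and 2.05 CPM without and at 1.84, 1.52 and 2.06 CPM with SMARTA (−1.06 ± 0.47; edgeR adjusted p = 0.275). Of the stretches of 50 bases, the read length, in the annotated transcripts of Kifc1 and Kifc5b, 39.7% and 37.4% also occur in transcripts of another gene, mostly the other of the pair. A read from such a stretch matches both genes unless its mate tells them apart. Fragments that match both are left out by the counter's default, so the levels of both genes are uncertain and may be too low.

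**Figure D2:**
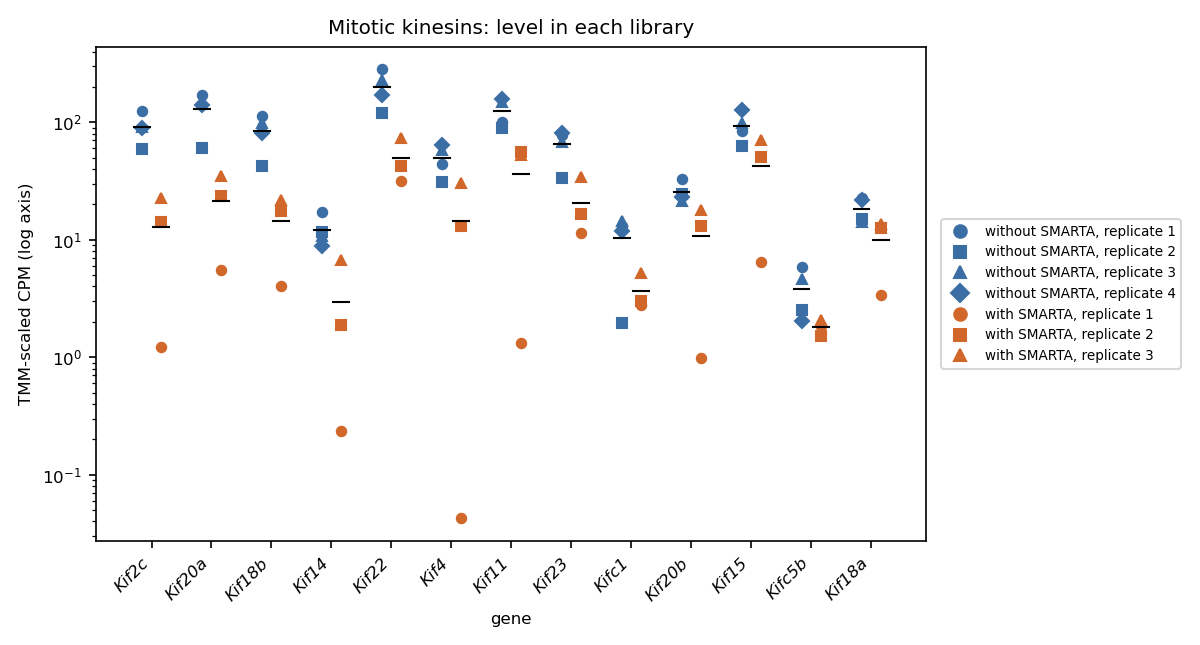
Level of the 13 mitotic kinesins in each library, in TMM-scaled CPM on a log axis; symbols are replicates, colours the groups and black bars the group means. Replicate 1 with SMARTA is the lowest library for 11 of the 13 genes and holds Kif4 at 0.0424 CPM.

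Replicate 1 with SMARTA was the lowest of all 7 libraries for 11 of the 13 mitotic kinesins. In 8 of the 13 it was at least 4-fold below the mean of replicates 2 and 3 with SMARTA on the log2 scale (prior count 2). The gap was −7.85 for Kif4, −5.32 for Kif11, −3.92 for Kif20b and −3.82 for Kif2c, but −1.05 for Kif23, −0.83 for Kif22, −0.51 for Kifc1 and 0.06 for Kifc5b. Within this library the gap thus differed widely between members. The erythroid transcripts of this library are given above, and their part in these gaps was not tested.

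**Figure D3:**
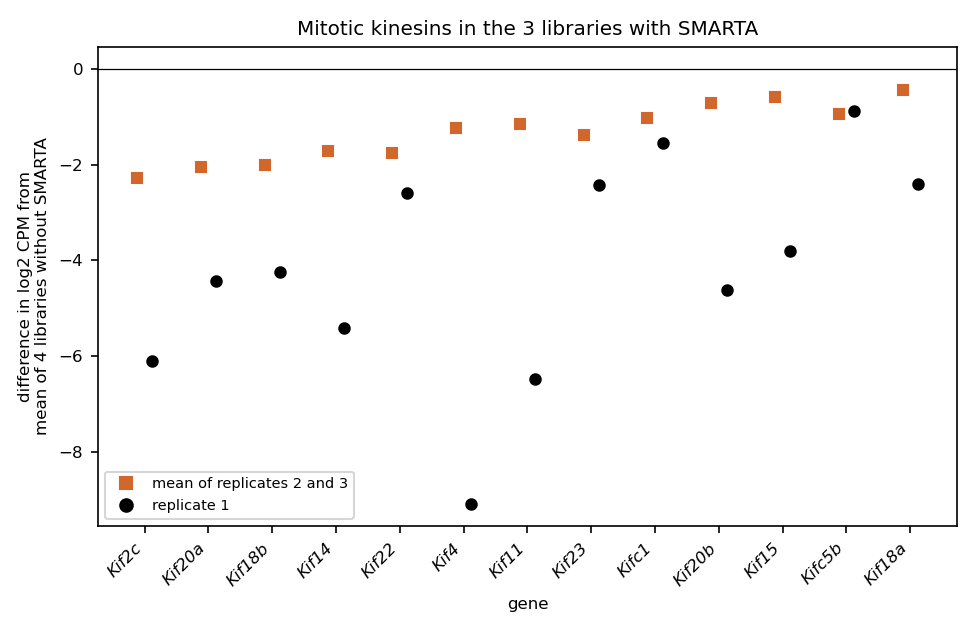
Difference in log2 CPM of each mitotic kinesin from the mean of the 4 libraries without SMARTA, for replicate 1 with SMARTA (circles) and for the mean of replicates 2 and 3 (squares). The squares run from −2.28 (Kif2c) to −0.45 (Kif18a), while the circles reach −9.09 (Kif4).

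With replicate 1 with SMARTA left out, all 13 mitotic kinesins still had a negative log2 fold change, with a median of −1.35, and 5 of 13 fell, against 2.37% of all genes called lower and 3.04% called higher in that fit. They were Kif2c (−2.32 ± 0.35; edgeR adjusted p = 0.0151), Kif18b (−2.10 ± 0.40; 0.0273), Kif20a (−2.15 ± 0.42; 0.0299), Kif22 (−1.81 ± 0.38; 0.0364) and Kif11 (−1.21 ± 0.27; 0.0458). Kif4 (−1.21 ± 0.41; edgeR adjusted p = 0.137) and Kif14 (−1.54 ± 0.54; 0.149) did not pass. The values of Kif4 and Kif11 moved most on leaving it out, and those of Kifc5b, Kifc1 and Kif22 least. Replicate 2 without SMARTA was the lowest of its group for 9 of the 13, and with it left out Kif22 and Kifc1 fell, against 1.55% of all genes called lower. With any 1 of the other 5 libraries left out no member passed by edgeR, and the adjusted p of Kif22 ranged from 0.0349 to 0.135 over the 7 fits.

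**Figure D4:**
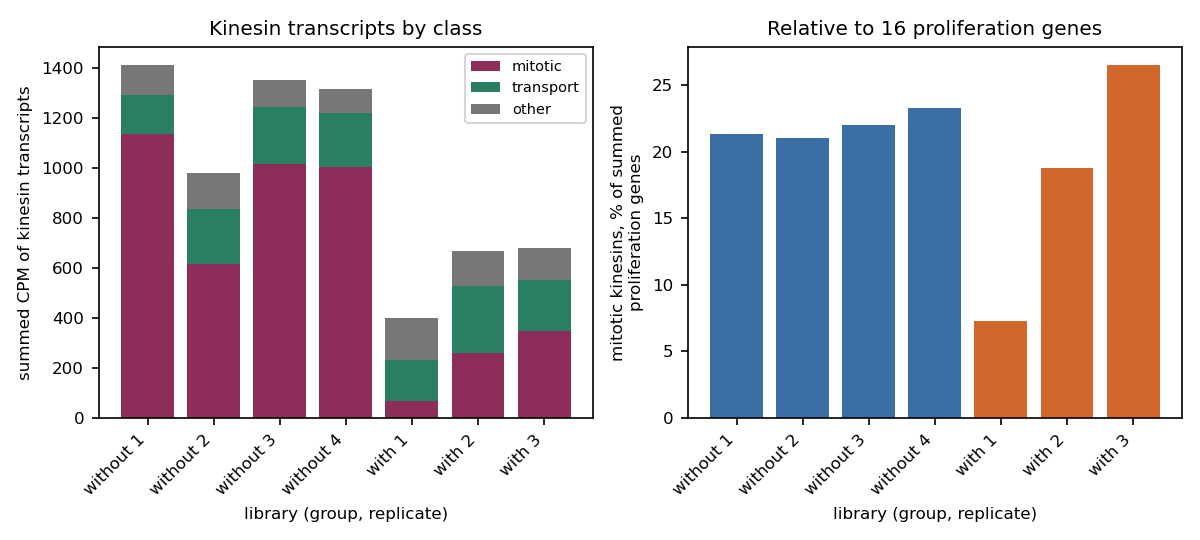
Left, summed CPM (by library total) of the mitotic, transport and other kinesins in each library; right, the mitotic sum as a percent of the summed CPM of 16 proliferation genes that are not kinesins. Mitotic kinesins make up 62.8% to 80.3% of kinesin CPM without and 16.9% to 50.9% with SMARTA, and the right-hand value is 21.0% to 23.3% without SMARTA, while the libraries with SMARTA are at 7.24%, 18.8% and 26.6%.

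Summed over the class, mitotic kinesin transcripts were at 1134, 614, 1015 and 1002 CPM without and at 67.4, 258 and 345 CPM with SMARTA, in order of replicate, and the groups did not overlap. The transport sum was at 157, 220.1, 226 and 215 CPM without and at 163, 267 and 205 CPM with SMARTA, and overlapped. The ratio of mitotic to transport CPM was therefore 2.79 to 7.22 without and 0.414 to 1.68 with SMARTA. The mitotic sum moved with general proliferation genes (the list of Mki67, Top2a, cyclins, Mcm genes and others), which summed to 2921 to 5315 CPM without and 931 to 1377 CPM with SMARTA. As a percent of that sum the mitotic kinesins stayed within 21.0% and 23.3% in the 4 libraries without SMARTA. With SMARTA the percent was lower in replicates 1 and 2, at 7.24% and 18.8%, and higher in replicate 3, at 26.6%, so that the groups overlapped.

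Per kilobase of exon, the scale on which genes can be compared, the 8 highest kinesins without SMARTA were all mitotic. Kif22 led with 40.8 ± 14.4 CPM per kilobase, followed by Kif20a (34.0 ± 12.6), Kif11 (25.7 ± 6.99), Kif18b (23.4 ± 8.57) and Kif2c (20.8 ± 6.18), which overlapped in their libraries. With SMARTA 5 of the 8 highest were mitotic, and the order was led by Kif21b (10.4 ± 2.63), Kif22 (10.03 ± 4.45), Kif5b (8.53 ± 4.04), Kif11 (7.59 ± 6.34) and Kif3b (7.49 ± 2.65). Neighbours in the order of the 33 members overlapped in 30 of 32 pairs without and 32 of 32 with SMARTA. Among transport kinesins Kif5b was highest in both groups, at 8.18 ± 2.04 and 8.53 ± 4.04 CPM per kilobase.

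None of the 14 transport kinesins passed in either direction by edgeR, and none by DESeq2 or limma-voom. At an unadjusted p under 0.05, 2 were higher, Kif1b and Kifc2, against 9.18% of all genes, and none was lower, against 9.37%. Libraries did not overlap for 2 higher (Kif1b and Kif3c), against 8.73% of all genes higher, and for 1 lower (Kif1c), against 10.5%. The shares higher at that p, and those not overlapping, are near those of all genes. None of the 14 passed by edgeR with replicate 1 with SMARTA left out, and the median log2 fold change was 0.54.

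The conventional kinesin heavy chains carry vesicles, mitochondria and lytic granules. Kif5b, the ubiquitous one, was at 37.99, 67.0, 69.2 and 67.9 CPM without and at 34.4, 94.0 and 60.7 CPM with SMARTA (a log2 difference of 0.06 ± 0.36; edgeR adjusted p = 0.955). The groups overlapped, and the sign turned with scaling by library totals, at −0.09. The neuronal Kif5a and Kif5c were low, with mean levels of 1.75 and 0.449 CPM without SMARTA. Kif5a had 1 count in replicate 1 with SMARTA against 24 and 83 in the other 2.

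Of the motors that move cargo in cilia and vesicles elsewhere in the cell, Kif3c was at 11.8, 9.07, 11.5 and 10.8 CPM without and at 15.2, 14.1 and 17.5 CPM with SMARTA (0.53 ± 0.24; edgeR adjusted p = 0.292). All 3 libraries with SMARTA were higher than the other 4, while exons of other annotated genes cover 40.7% of its exon bases. Kif3b was at 25.8, 29.5, 32.8 and 28.7 CPM without and at 26.0, 55.5 and 45.07 CPM with SMARTA (0.53 ± 0.28; edgeR adjusted p = 0.36). Replicate 1 with SMARTA lay within the range without SMARTA and the other 2 above it, and with replicate 1 left out the difference was 0.77 ± 0.21 (edgeR adjusted p = 0.0764). Kif3a, the partner of Kif3b, was at 3.79, 8.81, 4.78 and 10.5 CPM without and at 8.46, 14.2 and 12.3 CPM with SMARTA (0.74 ± 0.41; edgeR adjusted p = 0.393). Kif17 lay near the threshold of the rule.

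The Kif1, Kif13 and Kif16 motors carry vesicles, mitochondria and endosomes. Kif1b was at 6.38, 9.51, 10.5 and 6.24 CPM without and at 11.6, 12.0 and 22.5 CPM with SMARTA (0.91 ± 0.35; edgeR adjusted p = 0.209), with no overlap. Kif1c was at 3.44, 3.42, 2.19 and 2.78 CPM without and at 2.04, 1.08 and 2.00 CPM with SMARTA (−0.79 ± 0.42; edgeR adjusted p = 0.359), also with no overlap but in the other direction. Kif13b was at 44.6, 37.5, 62.4 and 50.9 CPM without and within 35.9 to 39.5 CPM with SMARTA (−0.39 ± 0.23; edgeR adjusted p = 0.419). Kif16b, an early endosome motor, had means of 22.6 ± 6.57 and 28.1 ± 7.27 CPM, and Kif13a was at most at 1.15 CPM in any library.

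The minus-end motors Kifc2 and Kifc3 had the largest positive differences of the family at low levels. Kifc2 was at 1.34, 5.31, 1.73 and 1.88 CPM without and at 6.78, 9.30 and 4.03 CPM with SMARTA (1.39 ± 0.55; edgeR adjusted p = 0.221). It overlapped only through replicate 2 without SMARTA. Kifc3 held 0 to 19 counts without and 13 to 78 counts with SMARTA (2.21 ± 1.14; edgeR adjusted p = 0.353).

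**Figure D5:**
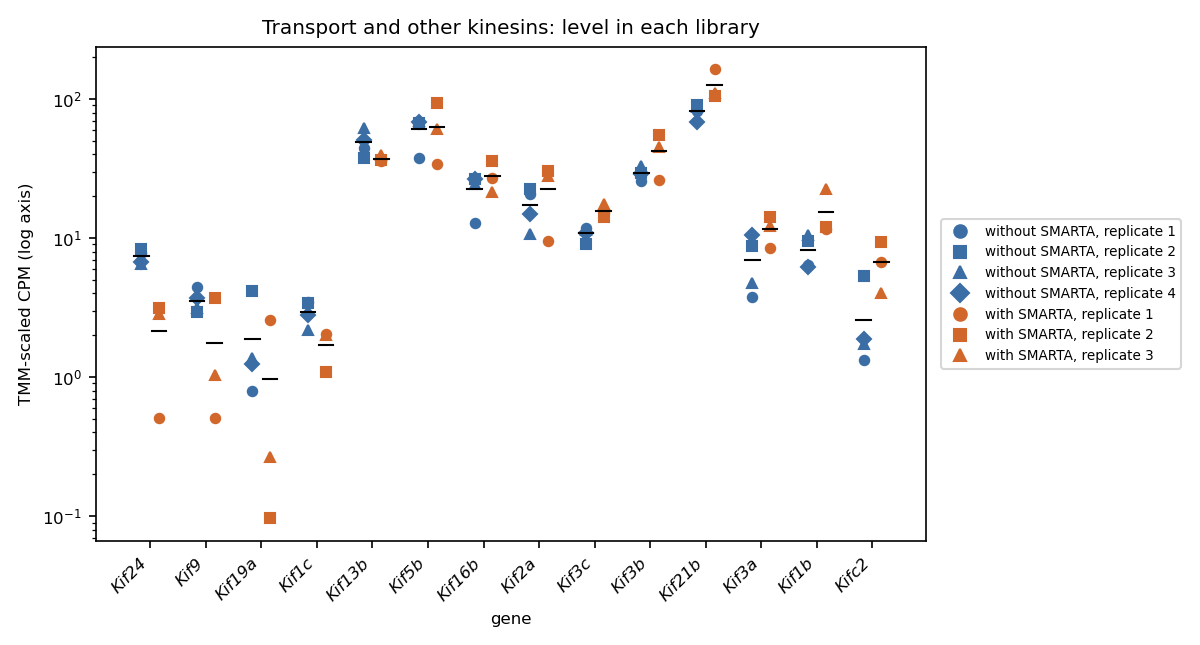
Level of the 14 transport and other kinesins that reached 3 CPM in at least 1 library, in TMM-scaled CPM on a log axis; symbols are replicates, colours the groups and black bars the group means. Kif21b, Kif3c and Kif1b are higher in all 3 libraries with SMARTA than in any without, and Kif24 and Kif1c are lower in all 3.

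Of the 6 other kinesins none passed by edgeR or limma-voom, and DESeq2 called Kif24, among 1740 calls over all genes. At an unadjusted p under 0.05, 1 was lower (Kif24), against 9.37% of all genes, and 1 was higher (Kif21b), against 9.18%. None of the 6 passed by edgeR with replicate 1 with SMARTA left out. Kif21b, a motor that limits microtubule growth and acts in the positioning of the T cell centrosome, lies on chromosome 1 from 136131389 to 136177998. It was at 82.0, 90.4, 87.6 and 68.3 CPM without and at 163, 106 and 110.5 CPM with SMARTA (0.62 ± 0.22; edgeR adjusted p = 0.164). The groups did not overlap, and replicate 1 with SMARTA, the lowest library for most mitotic kinesins, was the highest here. Without it the difference was 0.38 ± 0.18 (edgeR adjusted p = 0.285).

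Kif24, a centriolar depolymerase that restrains cilium formation in dividing cells, was at 7.86, 8.35, 6.52 and 6.77 CPM without and at 0.509, 3.16 and 2.82 CPM with SMARTA (−1.77 ± 0.58; edgeR adjusted p = 0.143), with no overlap. Kif2a, the depolymerase related to Kif2c that acts in interphase and at spindle poles, was at 20.6, 22.6, 10.6 and 14.8 CPM without and at 9.56, 30.5 and 28.2 CPM with SMARTA (0.40 ± 0.43; edgeR adjusted p = 0.693). Its sign was opposite to that of Kif2c in this fit. Kif9 and Kif19a, of motile cilia, and Kif7, of the Hedgehog pathway, had log2 fold changes of −1.02, −0.94 and −1.34 with standard errors of 0.65, 1.06 and 1.29. Kif19a was at 2.57 CPM in replicate 1 with SMARTA and at 0.0964 and 0.265 CPM in the other 2, so that leaving out that library moved its log2 fold change to −3.42 ± 0.96 (edgeR adjusted p = 0.0808).

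Of 23 listed partners of mitotic kinesins on the spindle 22 were tested, all 22 were below 0 with a median log2 fold change of −2.06, and in all 22 the groups did not overlap, against 50.2% of all genes below 0 and 10.5% not overlapping and lower. In all, 5 were called lower and none higher, against 1.63% of all genes called lower. They were Plk1, the mitotic kinase that prepares the central spindle (−2.76 ± 0.38; edgeR adjusted p = 0.0169), Cit, the citron kinase bound by Kif14 (−1.97 ± 0.30; 0.0184), Cdca8, borealin of the chromosomal passenger complex (−2.57 ± 0.40; 0.0195), Spc24 of the kinetochore (−2.81 ± 0.54; 0.0367) and Aurkb, Aurora B (−2.32 ± 0.45; 0.0388). Cit was at 62.4, 38.6, 58.1 and 42.2 CPM without and at 9.37, 12.8 and 16.3 CPM with SMARTA, while Kif14 spread more widely within the group with SMARTA. Cenpe, a kinesin of the kinetochore whose symbol keeps it out of the family as defined here, was at 37.8, 29.998, 32.3 and 34.9 CPM without and at 1.38, 7.04 and 14.1 CPM with SMARTA (−2.17 ± 0.64; edgeR adjusted p = 0.111). With replicate 1 with SMARTA left out 10 of the 22 were called lower, Cenpe among them (edgeR adjusted p = 0.0278), against 2.37% of all genes.

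Of 13 genes of the transcriptional control of late cell cycle genes (MuvB subunits, B-Myb, FoxM1, pocket proteins, NF-Y) 1 was called lower and none higher, against 1.63% and 1.52% of all genes, with a median log2 fold change of −0.18. With replicate 1 with SMARTA left out 2 were called lower, against 2.37% of all genes, and the median was −0.06. Mybl2, which encodes B-Myb, the activator that joins MuvB at TTTGAA cores, fell by 2.39 ± 0.39 (16.1 ± 5.78 to 3.08 ± 0.825 CPM; edgeR adjusted p = 0.0239). Of 16 proliferation genes without kinesins 12 were called lower and none higher, against 1.63% of all genes called lower, with a median of −1.92. With replicate 1 with SMARTA left out 11 were called lower, against 2.37% of all genes, and the median was −1.68. The 4 with the smallest p were Ube2c, which marks mitotic proteins for degradation (−3.30 ± 0.40; edgeR adjusted p = 0.0131), Cdc20, an activator of the anaphase-promoting complex (−2.36 ± 0.39; 0.0243), Rrm2 of deoxynucleotide synthesis (−2.55 ± 0.43; 0.0257) and Mcm5 of the replicative helicase (−1.84 ± 0.33; 0.0294).

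Of 25 tested partners of transport kinesins (light chains, adaptors and activators) 1 was called higher and none lower, against 1.52% of all genes called higher, with a median log2 fold change of 0.09. With replicate 1 with SMARTA left out 3 of the 25 were called higher, against 3.04% of all genes in that fit, and the median was 0.41. Madd, an activator of Rab proteins that links Kif1 motors to vesicles, was at 116, 181, 169 and 129 CPM without and at 363, 280.1 and 435 CPM with SMARTA. The groups did not overlap and Madd rose by 1.27 ± 0.23 (edgeR adjusted p = 0.0303). Of 25 tested genes of dynein, dynactin and their regulators, the motor of opposite direction, none was called by edgeR and none had an unadjusted p under 0.05, with a median of 0.09. None was called either with replicate 1 with SMARTA left out, where the median was 0.15. Those with the smallest p were Dctn4 (0.54 ± 0.25; edgeR adjusted p = 0.289) and Dctn6 (0.44 ± 0.20; 0.292), both with overlapping groups.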

How the data were processed

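Messenger RNA of 7 sorted samples was read in pairs of 50 bases. The input was 6 to 15 ng of total RNA, with 12 cycles of cDNA amplification by a SMART-seq V4 kit, per the labels' protocols. The submitters' processing notes name featureCounts 1.6.2, STAR 2.6.0c and the build GRCm38.p6. The deposited values are raw counts of fragments in GENCODE M17 exons, summed by gene symbol with no use of strand, per the file headers; fragments matching several places or genes were left out by the counter's default settings.

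Groups came from the sample titles. In R 4.3.3, edgeR 4.0.16 kept 15896 genes by filterByExpr (minimum count 10, minimum total 15), scaled libraries by TMM and compared all 7 in a robust quasi-likelihood fit without covariates (two-sided; adjusted p under 0.05). All 33 members passed that filter. CPM of single genes are TMM-scaled, sums and marker levels use library totals, and each standard error is the log2 fold change divided by the square root of its F statistic. Alternatives used DESeq2 1.42.0, limma 3.58.1 and other settings. The fit was tested on simulated data. The text names every member, of each partner list up to 4 called genes or the 2 with the smallest p, and Cenpe; Aurkb completes a count and was added after its value was seen. Promoters shown in full were chosen after their motifs were seen. Members and lists were chosen with earlier results of these data known. Pairs of libraries within a group differed by more than sampling noise (93.5 to 444 units of chi-square for each degree of freedom).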

Additional observations from a re-analysis of the deposited data

Results flagged for a closer look

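In 3 of the 33 members 1 of the 4 libraries without SMARTA stood far from the others of its group, by the ratio of its gap to the group's range (Dixon's criterion at 95%); chance flags about 1 in 20 groups. Kif5b was at 37.99 CPM in replicate 1, against 67.0 to 69.2 CPM in the other 3, and Kif16b at 12.9 CPM in replicate 1, against 24.4 to 26.7 CPM. Kifc2 was at 5.31 CPM in replicate 2, against 1.34 to 1.88 CPM. Groups of 3 were not examined in this way.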

How the results depend on the processing

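All 13 mitotic kinesins kept a negative log2 fold change in every fit run. The class medians ran from −2.25 to −1.35 (mitotic) and 0.43 to 0.59 (transport) with 1 library left out. Kif2a, classed among the others, kept a positive value throughout, from 0.14 to 0.93 over the alternatives. Counting it as mitotic gave a class median of −1.71 and 1 call. The number of mitotic kinesins called, 1 of 500 calls among all genes, was 3 of 561 calls with library totals alone. It was 2 of 531 calls with upper-quartile factors and 2 of 575 without a filter, where 30193 genes were tested. With limma-voom it was 4 of 529 calls, and with DESeq2, which also called 1 other kinesin, 5 of 1740. It was 0 of 7 calls at an adjusted p under 0.01. With 1 library left out it ranged from 0 to 5 and the calls among all genes from 17 to 907. With both replicate 1 with and replicate 2 without SMARTA left out, a choice made after seeing the data, 7 mitotic kinesins and 1 transport kinesin (Kifc2) were called, of 1257 calls; the cause of these differences was not tested. With the replicate number as a block 0 kinesins and 0 genes were called, with 1631 genes at an unadjusted p under 0.05. Deviations from the group means in libraries of the same number had r = −0.14, 0.03 and −0.27 for replicates 1, 2 and 3, across genes. Such deviations sum to 0 within each small group, so this check cannot decide whether the numbers pair the libraries. The labels do not state a pairing. Kif5b turned to −0.093 with library totals, −0.027 with limma-voom, −0.038 with a gene length trend removed (added after seeing the data) and −0.35 to 0.35 with 1 library left out. Kif5c turned to 0.38 with limma-voom, 0.56 with the block and −0.33 to 0.76 with 1 library left out. Depth limits the members near the floor, among them Kif5c, Kif7, Kif13a, Kif17 and Kifc3, and Kif4 in replicate 1 with SMARTA.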
